A study of Mus musculus and Sus scrofa with 18 samples.

Results

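The proteasome is described here through all mouse genes whose symbol is Psma, Psmb, Psmc, Psmd, Psme or Psmf followed by a number, without pseudogenes or antisense genes. The rule found 44 of the 55357 genes counted in the mouse striatum. Of these, 43 had enough counts to be tested. Psmb11, a catalytic subunit of the thymus, did not pass the filter, with 0 to 10 counts per library. The members fall into 37 constitutive genes, 5 inducible genes (Psmb8, Psmb9, Psmb10, Psme1 and Psme2) and the tissue-restricted Psma8 and Psmb11.

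The RNA came from striata of 9 mice, with 3 groups of 3. WT mice were injected with AAV-Ctrl gRNA and no CasRx. The other groups were heterozygous HD KI-140Q mice, in which exon 1 of one Htt allele is the human exon with an expanded CAG repeat. Untreated HD mice received AAV-CasRx with Ctrl gRNA, and treated HD mice received AAV-CasRx with 4 HTT gRNAs. CasRx is an RNA-cutting CRISPR enzyme, expressed here from the broadly active CAG promoter. Mice were injected at 6 months of age into both sides of the striatum and sampled 1.5 months later. Both HD groups carry the knock-in allele and CasRx while WT carries neither, so the effects of the allele and of the CasRx vector cannot be told apart in a comparison with WT. The tissue holds many cell types, and more cells of a type cannot be told apart from more RNA per cell.

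Total counts per library ranged from 27184356 to 32102121. Htt, counted from both alleles by 3′ tags that lie outside the guides' target in exon 1, was at 182 to 191 CPM (counts scaled to a common library total after TMM) in WT, 140 to 150 CPM in untreated and 130 to 140 CPM in treated HD mice. The log2 differences from WT were -0.37 ± 0.06 (SE) in untreated and -0.46 ± 0.06 in treated mice (edgeR adjusted p of 0.00656 and 0.00425), and that between treated and untreated mice was -0.10 ± 0.06 (edgeR adjusted p = 0.942). These tags do not measure the mutant allele alone. None of the 9 markers of striatal projection neurons was at 0 in any library, which does not show that the tissue was striatum alone. The sum of 5 choroid plexus markers ran from 33.7 to 3731 CPM between libraries. Counts of Y-linked genes were present in the 3 WT libraries and in untreated replicate 1, and were 0 in the other 5 HD libraries, so sex differed with the group.

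The proteasome degrades proteins that carry ubiquitin chains. Its core particle is a stack of alpha and beta rings, in which Psmb5, Psmb6 and Psmb7 encode the subunits that cut peptide bonds, and its regulatory particle (Psmc and Psmd genes) recognises, unfolds and feeds in the substrate. Interferon gamma induces Psmb8, Psmb9 and Psmb10, whose products replace Psmb5, Psmb6 and Psmb7 in new core particles to form the immunoproteasome, and Psme1 and Psme2, which encode the PA28 activator. The peptides it makes are loaded on MHC class I molecules, a process that is weak in the healthy brain.

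RefSeq promoter windows from 250 bases before to 50 bases after the annotated start (GRCm38.p6) were held for 37 of the 44 members. Capitals mark the motif found on either strand. Psmb8 and Psme1 are shown for the interferon-type motifs, Psmb9 for its shared promoter, and Psmb5 and Psmb6 as the constitutive counterparts.
Psmb8 (chr17:34197945-34198244, plus strand): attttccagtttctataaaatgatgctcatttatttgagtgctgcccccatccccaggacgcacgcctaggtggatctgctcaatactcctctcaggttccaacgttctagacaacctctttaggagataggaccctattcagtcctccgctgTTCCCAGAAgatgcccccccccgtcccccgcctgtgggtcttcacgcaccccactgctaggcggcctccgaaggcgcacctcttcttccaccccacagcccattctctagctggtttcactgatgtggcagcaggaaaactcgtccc
Psmb9 (chr17:34187281-34187580, minus strand): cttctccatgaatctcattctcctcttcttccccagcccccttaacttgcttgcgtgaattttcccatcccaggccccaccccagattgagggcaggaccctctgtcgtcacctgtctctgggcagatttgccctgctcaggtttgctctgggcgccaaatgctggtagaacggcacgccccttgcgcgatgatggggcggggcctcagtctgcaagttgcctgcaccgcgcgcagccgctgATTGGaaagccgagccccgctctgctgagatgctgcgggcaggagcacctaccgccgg
Psme1 (chr14:55578244-55578543, plus strand): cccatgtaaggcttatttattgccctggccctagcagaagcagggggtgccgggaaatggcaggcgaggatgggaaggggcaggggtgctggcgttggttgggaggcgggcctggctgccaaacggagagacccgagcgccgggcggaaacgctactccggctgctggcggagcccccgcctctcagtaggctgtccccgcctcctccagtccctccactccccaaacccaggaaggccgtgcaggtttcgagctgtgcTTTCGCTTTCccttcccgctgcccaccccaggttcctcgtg
Psmb5 (chr14:54617946-54618245, minus strand): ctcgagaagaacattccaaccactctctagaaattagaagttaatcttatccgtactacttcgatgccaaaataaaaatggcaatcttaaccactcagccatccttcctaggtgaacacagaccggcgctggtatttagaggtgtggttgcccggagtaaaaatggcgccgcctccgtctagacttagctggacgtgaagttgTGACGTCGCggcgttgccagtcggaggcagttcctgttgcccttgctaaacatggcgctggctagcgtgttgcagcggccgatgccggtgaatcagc
Psmb6 (chr11:70525107-70525406, plus strand): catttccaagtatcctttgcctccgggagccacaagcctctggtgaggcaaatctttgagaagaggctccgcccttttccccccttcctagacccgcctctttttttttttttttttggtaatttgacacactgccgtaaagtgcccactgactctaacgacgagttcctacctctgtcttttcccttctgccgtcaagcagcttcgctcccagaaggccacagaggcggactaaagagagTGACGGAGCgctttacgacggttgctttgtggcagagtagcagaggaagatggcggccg

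The capitals in Psmb8 are a gamma-activated sequence (GAS, TTCNNNGAA), a site type of interferon gamma signalling, 97 to 89 bases before the start. It occurred in 1 of the 5 inducible and 1 of the 31 constitutive members with a window, and in 9.55% of all 27025 genes with a window. The capitals in Psme1 are the reverse complement of the letters GAAA, any 2 bases and GAAA, the core of the interferon-stimulated response element bound by IRF factors, 9 to 18 bases after the start. This core was found in 1 of 5 inducible members, in 3 of 31 constitutive members (Psmb3, Psmd4 and Psmd9) and in 3.99% of all genes with a window. The windows of Psmb10 and Psme2 held none of the 4 motifs searched.

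The antioxidant response element core TGACNNNGC, the site type of Nfe2l1 and Nfe2l2, is in capitals in Psmb5 and Psmb6. It was found in 6 of 31 constitutive members, in 0 of 5 inducible members and in 14.0% of all genes with a window. The CCAAT box is in capitals as its reverse complement in Psmb9. It was found in 1 of 5 inducible and 12 of 31 constitutive members and in 41.1% of all genes with a window. The Psmb9 window overlaps that of Tap1, a subunit of the peptide transporter, by 275 bases on the opposite strand, and their annotated starts are 226 bases apart. The motifs do not overlap each other in the printed windows, and a match is a description of the letters only.

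In untreated HD mice, the 3 catalytic subunits of the immunoproteasome rose against WT, by 2.40- to 15.7-fold, while Psmb5, Psmb6 and Psmb7, the constitutive counterparts, overlapped with WT. With a covariate for Y-linked counts all 3 calls were lost (edgeR adjusted p of 0.172 to 0.399). That covariate nearly follows the group and rests mostly on untreated replicate 1, so its fit cannot tell sex apart from group. Without untreated replicate 3 the log2 difference went from 3.97 to 2.48 for Psmb8 and from 3.72 to 1.86 for Psmb9, whose call was lost. Among all 43 tested members, the quasi-likelihood test of edgeR (adjusted p below 0.05) called 4 higher (Psmb8, Psmb9, Psmb10 and Psma8) and 1 lower (Psmd6). Psma8 passed the count filter only through the HD libraries, where it was high, so its call is not read as a result. Of all 19463 tested genes, 10.7% were called in this comparison, 4.58% higher and 6.10% lower, so the share of members called was near that of all genes, and 3 of the 5 calls were inducible genes. DESeq2 called 7 members (5 higher and 2 lower) and 3473 of all 19463 genes. At an unadjusted P under 0.05 there were 14 members, against 28.6% of all genes. With at least a 2-fold difference as well there were 4, all higher, against 8.16% of all genes in either direction and 5.57% higher. Without TMM scaling there were also 5 calls, all higher, with Psmf1 in place of Psmd6. In treated HD mice no member was called against WT, and none was called between treated and untreated mice.

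Psmb8 (ENSMUSG00000024338, chromosome 17) encodes the inducible form of the chymotrypsin-like subunit. Its level was 1.74, 2.61 and 1.53 CPM in the 3 WT mice, 7.75, 14.1 and 70.2 CPM in the untreated mice and 9.50, 15.6 and 38.3 CPM in the treated mice. Every HD library was above every WT library, and the treated values lay within the range of the untreated ones. Relative to WT, Psmb8 rose in untreated mice by 3.97 ± 0.88 on the log2 scale (SE, n = 3 and 3, 15.7-fold, edgeR adjusted p = 0.0241). The difference of treated mice from WT was 3.43 ± 0.87 (10.8-fold, edgeR adjusted p = 0.0608).

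Psmb9 (ENSMUSG00000096727, chromosome 17) encodes the inducible form of the caspase-like subunit. It was at 1.02, 1.54 and 1.03 CPM in WT, 2.74, 5.98 and 38.8 CPM in untreated and 4.69, 8.73 and 22.4 CPM in treated mice. As for Psmb8, replicate 3 was the highest library in both HD groups and no HD library overlapped WT. Psmb9 rose in untreated mice by 3.72 ± 1.00 on the log2 scale (13.2-fold, edgeR adjusted p = 0.0442), and the difference in treated mice was 3.31 ± 0.99 (edgeR adjusted p = 0.0970).

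Psmb10 (ENSMUSG00000031897, chromosome 8) encodes the inducible form of the trypsin-like subunit and was the inducible catalytic gene with the smallest difference. Its level was 15.5, 12.1 and 10.7 CPM in WT, 23.8, 19.8 and 48.5 CPM in untreated and 20.5, 22.8 and 30.2 CPM in treated mice. All HD values were above all WT values. The rise in untreated mice was 1.27 ± 0.32 on the log2 scale (2.40-fold, edgeR adjusted p = 0.0360), and the difference in treated mice was 0.94 ± 0.32 (1.92-fold, edgeR adjusted p = 0.129).

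Psme1 and Psme2 (both on chromosome 14) encode the alpha and beta subunits of PA28, a cap that opens the core particle without using ATP. Psme1 was at 21.1, 21.5 and 17.3 CPM in WT, 21.6, 28.1 and 50.0 CPM in untreated and 24.0, 30.9 and 42.1 CPM in treated mice. Psme2 was at 16.1, 16.8 and 16.6 CPM in WT, 18.6, 20.7 and 38.2 CPM in untreated and 19.4, 20.4 and 31.7 CPM in treated mice. Neither gene overlapped between HD and WT libraries, although untreated replicate 1 was barely above the highest WT value for Psme1. The log2 differences of untreated mice from WT were 0.73 ± 0.30 for Psme1 (edgeR adjusted p = 0.141) and 0.65 ± 0.27 for Psme2 (edgeR adjusted p = 0.154), and neither passed the test. Psme2 counts are uncertain to the extent that reads are shared with Psme2b, a near-identical copy on chromosome 11, which had 13 to 94 counts per library against 426 to 1124 for Psme2.

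All 5 inducible genes were higher in every untreated library than in every WT library, and all 5 were so in every treated library. Across all tested genes, 15.0% met this condition in untreated and 13.4% in treated mice. Their median log2 difference was 1.27 in untreated mice, beside 0.02 over all tested genes. In treated mice it was 0.94, beside 0.00 over all tested genes. Of the 37 constitutive members, 2 were higher in every untreated library (Psme4 and Psmf1).

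**Figure D1:**
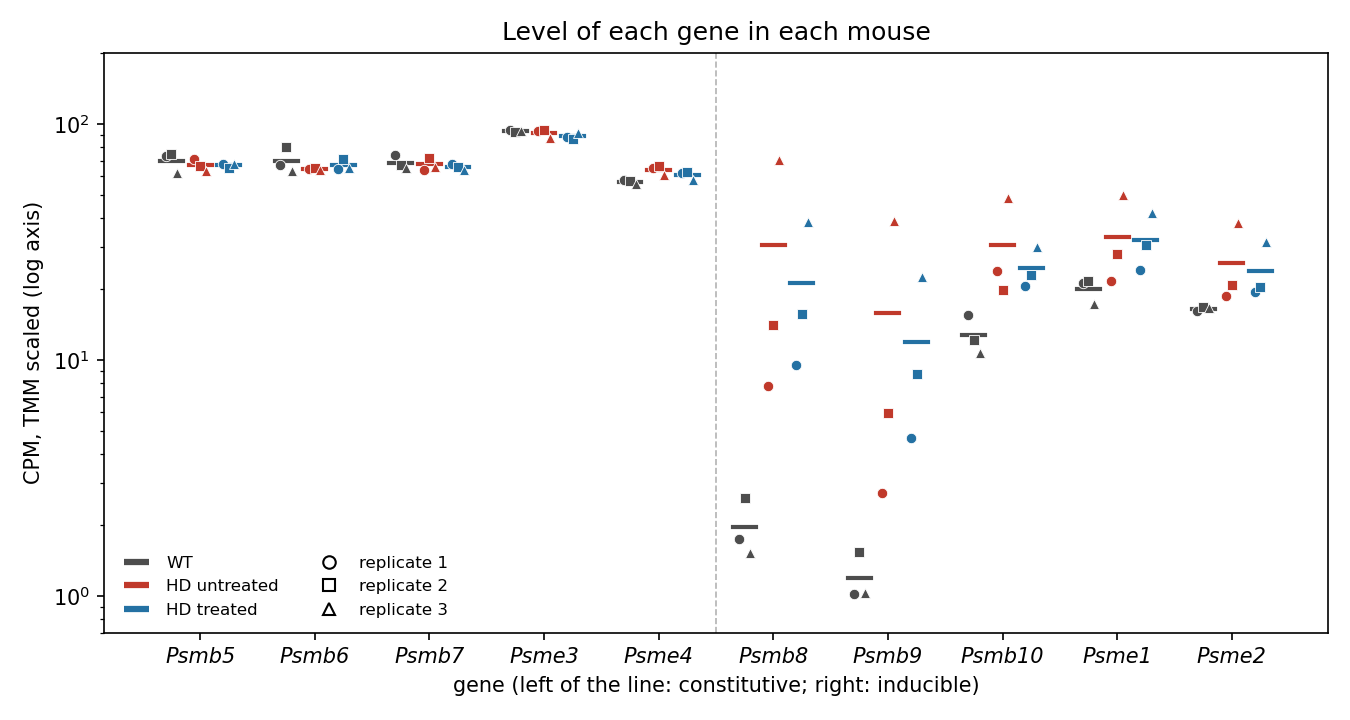
Level of 5 constitutive and 5 inducible proteasome genes in each mouse, in TMM-scaled CPM on a log axis. Points are single mice, shapes are replicate numbers and bars are group means (n = 3 per group). Psmb5, Psmb6 and Psmb7 lie at 62.3 to 79.6 CPM in all 9 mice, while every HD value of Psmb8 and Psmb9 lies above the WT values and replicate 3 is the highest in both HD groups.

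Psmb5, Psmb6 and Psmb7 encode the catalytic subunits of the constitutive core particle and did not pass the test in any comparison. Psmb5 was at 73.4, 74.3 and 62.3 CPM in WT, 70.8, 66.6 and 63.3 CPM in untreated and 67.8, 65.3 and 67.5 CPM in treated mice. Psmb6 ranged from 63.1 to 79.6 CPM in WT and from 64.1 to 71.0 CPM in HD mice. Psmb7 ranged from 65.1 to 73.7 CPM in WT and from 63.7 to 72.0 CPM in HD mice. The groups overlapped for all 3 genes, and their log2 differences from WT lay between -0.11 and -0.02 in untreated and between -0.07 and -0.06 in treated mice. For Psmb5, the 95% interval of the difference between untreated and WT mice ran from -0.26 to 0.13.

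The exchange of catalytic subunits was followed as the log2 ratio of each inducible gene to the constitutive gene whose place its product takes, within each library. Counts of different genes are not calibrated against each other, so the ratio is no stoichiometry, but its change between mice does not depend on library scaling. Psmb8 counts were 2.37, 3.51 and 2.45% of Psmb5 counts in WT, 11.0, 21.2 and 111% in untreated mice, and 14.0, 24.0 and 56.8% in treated mice. Psmb9 counts were 1.52 to 1.94% of Psmb6 counts in WT, 4.24, 9.16 and 60.6% in untreated mice, and 7.30, 12.3 and 34.3% in treated mice. The ratio of Psmb10 to Psmb7 was 16.4 to 21.0% in WT, 37.1, 27.5 and 73.5% in untreated mice, and 30.4, 34.7 and 47.4% in treated mice. For all 3 pairs both HD groups were apart from WT without overlap.

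With 3 mice against 3, the two-sided exact permutation test cannot give a p below 0.1. The log2 ratio of Psmb8 to Psmb5 was higher than in WT by 3.39 in untreated and by 3.24 in treated mice, that of Psmb9 to Psmb6 by 2.91 and 3.03, and that of Psmb10 to Psmb7 by 1.19 and 0.99. All 6 differences reached the smallest exact p of 0.1 (0.15 after adjustment over the 9 comparisons). Between treated and untreated mice the ratios overlapped, with differences of -0.14, 0.12 and -0.20 for the 3 pairs (exact p of 1, 1 and 0.8).

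**Figure D2:**
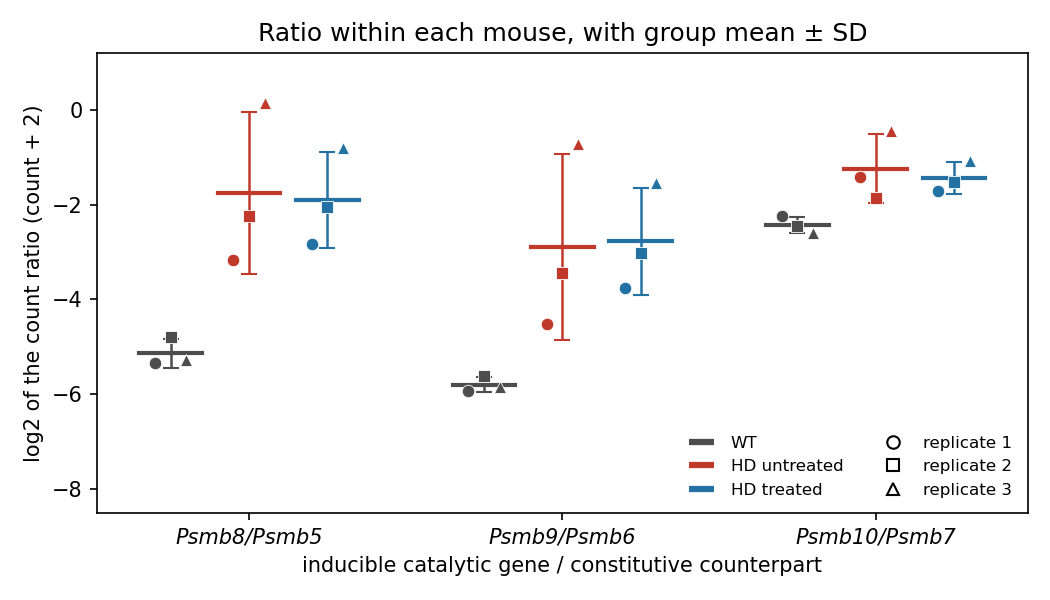
Log2 ratio of counts of each inducible catalytic gene to its constitutive counterpart in each mouse (2 added to each count), with group means and SD (n = 3 per group). WT mice lie below all HD mice for each pair, and treated and untreated mice overlap.

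Inducible and constitutive genes also differed in how much they varied between mice. Over the 9 libraries the SD of log2 CPM was 1.90 for Psmb8, 1.84 for Psmb9 and 0.66 for Psmb10. The SD of the 37 constitutive members ranged from 0.05 (Psme3) to 0.19 (Psmd10), with a median of 0.09, and the median over all tested genes was 0.24. Within groups the median SD was 0.45 for the 5 inducible genes and 0.09 for the constitutive genes.

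Of the 37 constitutive members, 1 was called in untreated mice (Psmd6, lower) and 0 in treated mice. Their median log2 difference from WT was -0.07 in both HD groups, beside 0.02 in untreated and 0.00 in treated mice over all tested genes. Of the 37 genes, 31 had a value below 0 in untreated and 32 in treated mice. Of all 19463 tested genes, 9320 and 9614 did. In untreated mice 9 of 37 were lower in every library than in every WT library, a condition met by 15.1% of all tested genes, and in treated mice 5 of 37, against 15.1% of all tested genes. Without TMM scaling, with an all-gene median of 0.07 in untreated and 0.06 in treated mice, the median of the constitutive members was -0.02 in both groups. In treated mice 0 of 37 constitutive members were called by edgeR, 2 had an unadjusted P under 0.05 (Psmd10 and Psmf1), and DESeq2 called 1 (Psmf1).

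In the alpha ring, which gates entry to the core, 0 of 7 genes were called by edgeR or by DESeq2 in untreated mice, and 1 had an unadjusted P under 0.05. This was Psma6, at 57.6, 65.0 and 56.6 CPM in WT and at 46.7, 52.3 and 55.4 CPM in untreated mice. It was lower in every HD library of both groups, with log2 differences of -0.21 ± 0.09 (edgeR adjusted p = 0.139) and -0.19 ± 0.09 (edgeR adjusted p = 0.245). Among the 4 structural genes of the beta ring, 0 were called by edgeR or DESeq2 and 0 had an unadjusted P under 0.05. Psmb1 had the smallest P, with 88.1 to 96.3 CPM in WT and 82.6 to 88.0 CPM in untreated mice.

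Among the 6 ATPases of the regulatory particle (Psmc1 to Psmc6), which unfold the substrate, 0 were called by edgeR or DESeq2 and 1 had an unadjusted P under 0.05 in untreated mice. This gene, Psmc2, was at 77.9 to 85.0 CPM in WT, 72.3 to 74.1 CPM in untreated and 74.3 to 78.1 CPM in treated mice, a log2 difference of -0.16 ± 0.06 in untreated mice (edgeR adjusted p = 0.106). In treated mice all 6 ATPases overlapped with WT.

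Of the 11 non-ATPase genes of the regulatory particle, 1 was called. Psmd6, a subunit of its lid, was at 59.2, 57.8 and 57.4 CPM in WT, 48.6, 50.3 and 46.6 CPM in untreated and 54.7, 50.0 and 53.6 CPM in treated mice. The HD values were below all WT values in both groups. In untreated mice Psmd6 fell by 0.26 ± 0.07 on the log2 scale (edgeR adjusted p = 0.0373), and this call was lost whichever library was left out (edgeR adjusted p of 0.0580 to 0.116). The value in treated mice was -0.14 ± 0.07 (edgeR adjusted p = 0.264). Psmd14, the enzyme that removes ubiquitin chains, was at 58.4 to 62.1 CPM in WT and 50.0 to 55.5 CPM in untreated mice (-0.20 ± 0.07, edgeR adjusted p = 0.0861), and is named after its values were seen. Psmd3 had the smallest P of this group in treated mice, with -0.18 ± 0.08 (edgeR adjusted p = 0.246).

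Psmd5, Psmd9 and Psmd10 encode chaperones that help to assemble the regulatory particle. None was called by edgeR, and 1 had an unadjusted P under 0.05. This was Psmd10, better known as gankyrin, on chromosome X, at 13.9, 16.3 and 14.9 CPM in WT, 11.7, 12.4 and 10.4 CPM in untreated and 12.5, 12.1 and 13.2 CPM in treated mice. Its values were lower in every HD library, with log2 differences of -0.38 ± 0.11 (edgeR adjusted p = 0.0571) and -0.25 ± 0.11 (edgeR adjusted p = 0.231). DESeq2 called Psmd10 in untreated mice.

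Psme3 and Psme4 encode the activators PA28 gamma and PA200, which interferon does not induce as it does PA28 alpha and beta. Psme3, the member with the smallest spread, was at 92.6 to 94.7 CPM in WT and 86.3 to 93.9 CPM in HD mice. Psme4 was at 55.5 to 57.9 CPM in WT, 60.6 to 66.6 CPM in untreated and 58.1 to 62.8 CPM in treated mice, above WT in every HD library (0.17 ± 0.07 in untreated mice, edgeR adjusted p = 0.120). Psmf1 encodes PI31, a binding partner that inhibits the core particle in vitro. It was at 22.5 to 23.9 CPM in WT, 26.7 to 29.0 CPM in untreated and 27.2 to 28.4 CPM in treated mice, also without overlap. The log2 differences were 0.27 ± 0.08 (edgeR adjusted p = 0.0616) and 0.25 ± 0.08 (edgeR adjusted p = 0.115), and DESeq2 called Psmf1 in both comparisons.

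Psma8 encodes an alpha subunit of the testis proteasome. It had 6, 4 and 2 counts in WT, 23, 13 and 16 counts in untreated and 18, 7 and 16 counts in treated mice. Since WT alone would not have passed the count filter, it had to be higher in HD mice to be tested, and its fitted value of 2.01 ± 0.55 in untreated mice (edgeR adjusted p = 0.0463) is a description only. Reads could be shared with its relative Psma7, which had 1985 to 2193 counts per library. The call held without WT replicate 1 (edgeR adjusted p = 0.0423) and was lost without any of the other 8 libraries (edgeR adjusted p of 0.0552 to 0.123).

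**Figure D3:**
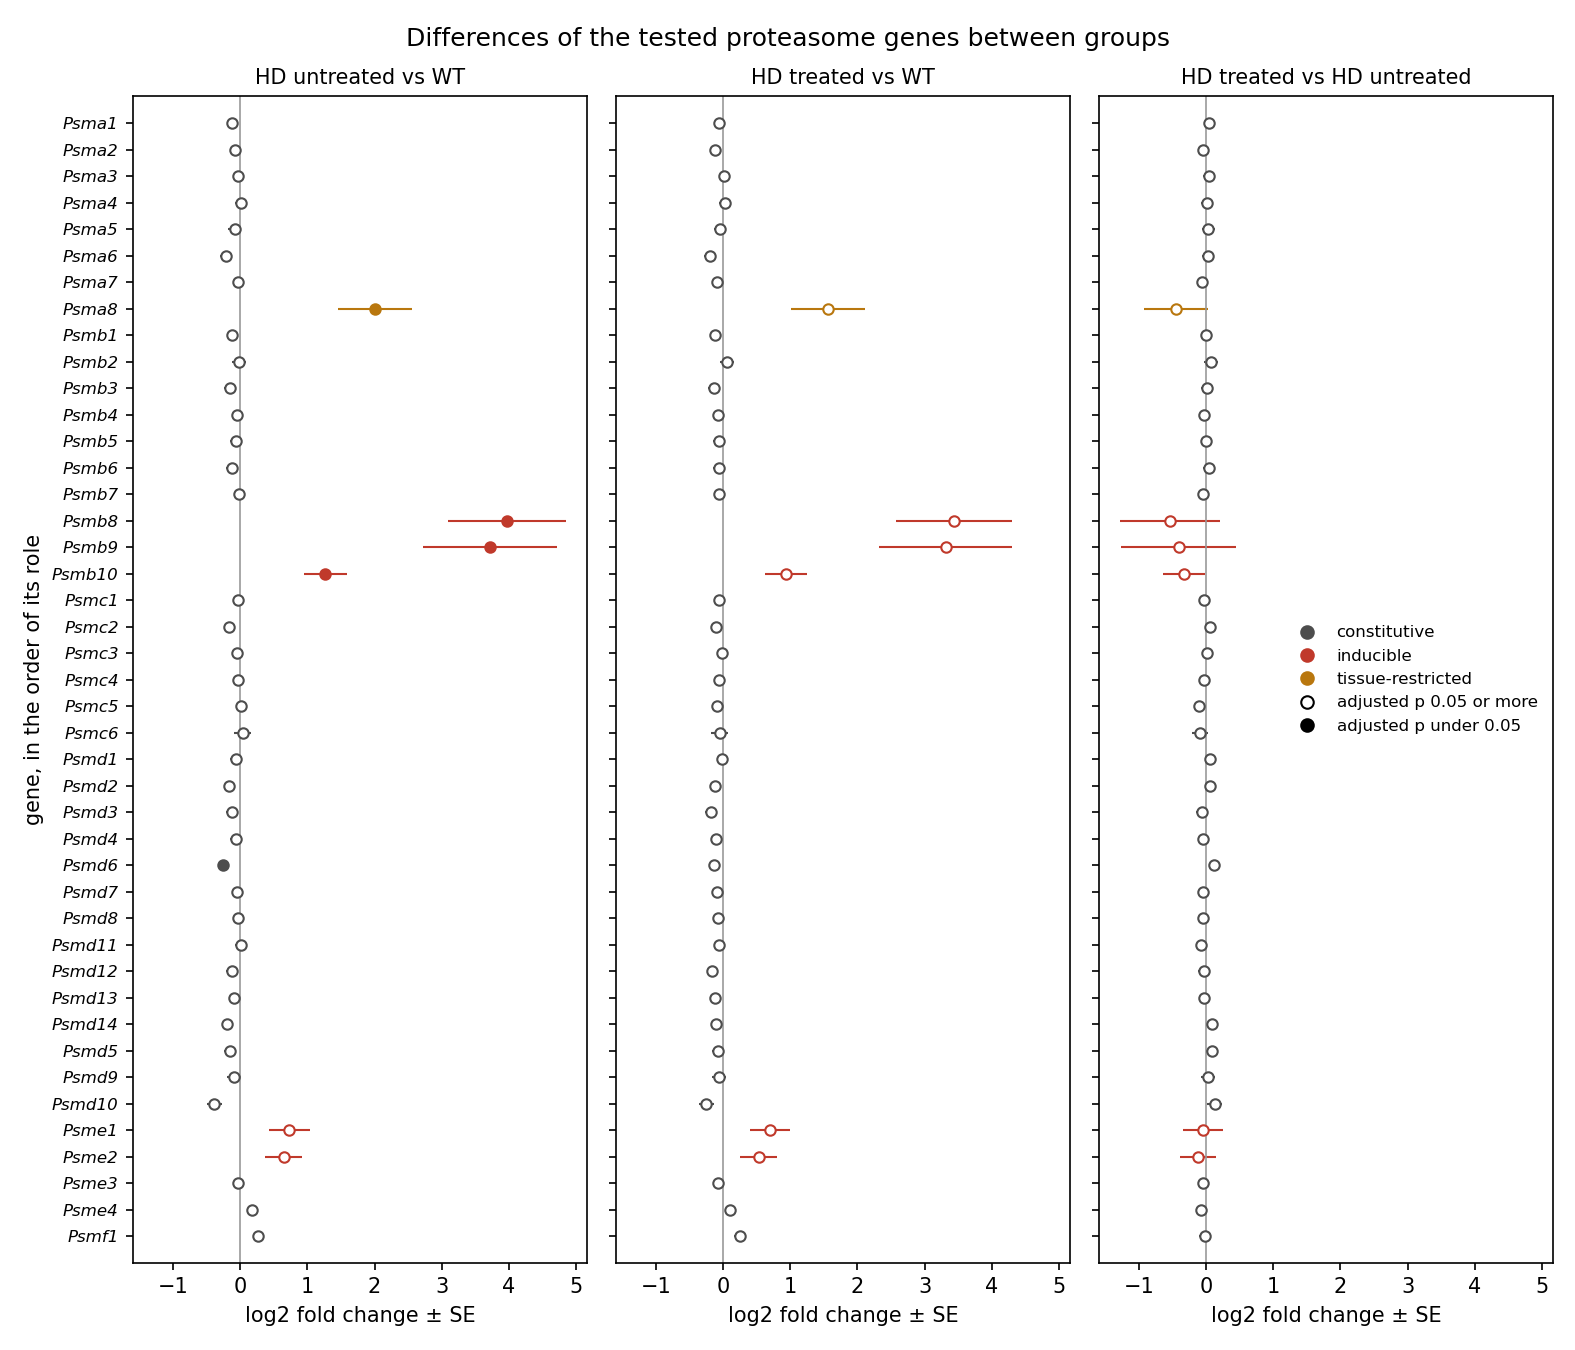
Log2 fold change with its SE for the 43 tested proteasome genes in the 3 comparisons, ordered by role. Filled points passed an adjusted p of 0.05 in edgeR (5 in untreated against WT, none in the other comparisons). The inducible genes and Psma8, which passed the filter only through HD libraries, stand to the right of 0 against WT, and the constitutive genes lie between -0.38 and 0.27.

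In treated mice the 5 inducible genes were above WT in every library, but edgeR called 0 of the 43 members at an adjusted p under 0.05. Of all tested genes, 3.69% were called in this comparison, 0.904% higher and 2.78% lower. At an unadjusted P under 0.05 there were 7 members, against 21.4% of all genes, and DESeq2 called 4 (Psmb8, Psmb9, Psmb10 and Psmf1), with 1946 of all 19463 genes called by it. With at least a 2-fold difference and an unadjusted P under 0.05, 3 members were higher (Psmb8, Psmb9 and Psma8), against 5.22% of all tested genes in either direction and 3.84% higher. A fit of these 2 groups alone called 3 (Psmb8, Psmb9 and Psmb10), with 1044 of 18854 genes called in all. The fit without untreated replicate 3 called these 3 too, with 1380 genes in all. The comparisons with WT share the WT libraries, so they are not independent of each other.

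Between treated and untreated HD mice, 0 of 43 members were called by edgeR, 0 had an unadjusted P under 0.05 and DESeq2 called 0. No gene was called among all 19463 (0%), with 1071 (5.50%) at an unadjusted P under 0.05 and 48 called by DESeq2. With at least a 2-fold difference and an unadjusted P under 0.05 there were 0 members, against 0.771% of all genes in either direction and 0.360% higher. All 5 inducible genes had a value below 0, but their ranges overlapped between groups and the intervals were wide. For Psmb8 the log2 difference was -0.54 with a 95% interval from -2.36 to 1.29, and for Psmb9 it was -0.41 from -2.49 to 1.68. For Psmb10 it was -0.33 from -1.09 to 0.43. A several-fold difference in either direction lies within these intervals for Psmb8 and Psmb9. Without untreated replicate 3 the values turned to 0.95 for Psmb8, 1.45 for Psmb9, 0.17 for Psmb10, 0.38 for Psme1 and 0.28 for Psme2, so the direction of all 5 depended on that mouse.

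The constitutive members lay close together in the HD groups. Their median log2 difference was -0.0024 and all 37 values lay between -0.10 and 0.13. Psmd6 had the smallest P (0.12 ± 0.07, edgeR adjusted p = 0.918). In the other role groups the smallest P belonged to Psma7 (-0.06 ± 0.08) in the alpha ring and Psmb2 (0.08 ± 0.10) in the beta ring. Psmc5, an ATPase of the regulatory particle, was at 129 to 131 CPM in untreated and 120.1 to 123 CPM in treated mice without overlap (-0.10 ± 0.07, edgeR adjusted p = 0.956). Over the 37 genes, 1 was higher and 3 were lower in every treated library, conditions that 6.92% and 8.83% of all tested genes met.

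Sex differed with the group, and untreated replicate 1 was the only HD library with Y-linked counts. In this mouse all 5 inducible genes were above every WT library, a condition that 30.1% of all tested genes met. Psmb8 was at 7.75 CPM there against at most 2.61 CPM in WT. These values repeat the result given above for every untreated library, and 1 mouse cannot tell sex apart from group. With the share of Y-linked counts as a covariate, edgeR called 0 of 43 members in either comparison with WT, with 6 members in untreated and 2 in treated mice at an unadjusted P under 0.05. The log2 differences of untreated mice in that fit were 2.29 for Psmb8, 1.58 for Psmb9 and 0.96 for Psmb10 (edgeR adjusted p of 0.172, 0.399 and 0.213), and those of treated mice were 1.29, 0.67 and 0.48 (edgeR adjusted p of 0.704, 0.876 and 0.777). Only 5 genes of all tested were called in treated mice with this covariate. Every WT library and no treated library had Y-linked counts. The covariate is thus set mostly by untreated replicate 1 against the other untreated mice. Sex cannot be told apart from group in this fit.

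Replicate 3 was the highest library for all 5 inducible genes in both HD groups. Without both of these mice, a fit chosen after the data were seen, the log2 differences of untreated mice from WT were 2.49 for Psmb8, 1.87 for Psmb9 and 0.78 for Psmb10 (edgeR adjusted p of 0.0112, 0.0506 and 0.0489). Those of treated mice were 2.69, 2.49 and 0.77 (edgeR adjusted p of 0.0130, 0.0214 and 0.0587). The mice left out held the highest values of these same genes, so the adjusted p-values of this fit are a description only.

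The call of Psmb8 in untreated mice held in 15 of 18 alternative fits, that of Psmb10 in 10 and that of Psmb9 in 7, with the direction kept in all. It was lost for all 3 genes without WT replicate 2 (edgeR adjusted p of 0.0772 for Psmb8, 0.120 for Psmb9 and 0.109 for Psmb10) and without WT replicate 3 (edgeR adjusted p of 0.0664, 0.104 and 0.0881). Psmb9 and Psmb10 lost it also without untreated replicate 3 (edgeR adjusted p of 0.118 and 0.0626), treated replicate 1 (0.0570 and 0.0540) or treated replicate 2 (0.0697 and 0.0594). Psmb9 alone lost it without WT replicate 1 (edgeR adjusted p = 0.0901) and untreated replicate 2 (edgeR adjusted p = 0.0514). Without untreated replicate 3, the highest of the 9 mice, the log2 difference was 2.48 for Psmb8, 1.86 for Psmb9 and 0.77 for Psmb10.

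Some regulators of the inducible subunits were also higher in HD mice. Ifngr2 and Nlrc5 rose in both comparisons with WT. Nlrc5, the transactivator of MHC class I genes, was at 0.944, 1.61 and 1.06 CPM in WT, 6.88, 15.5 and 72.7 CPM in untreated and 10.1, 16.3 and 50.4 CPM in treated mice. It rose by 4.71 ± 0.99 in untreated (edgeR adjusted p = 0.0203) and 4.40 ± 0.98 in treated mice (edgeR adjusted p = 0.0429) on the log2 scale. The Nlrc5 values had the same order as those of Psmb8 in each HD group. Ifngr2, a chain of the interferon gamma receptor, was at 15.9 to 19.4 CPM in WT, 30.6 to 36.8 CPM in untreated and 24.7 to 30.0 CPM in treated mice, 3 ranges that did not overlap. On the log2 scale it rose by 0.94 ± 0.12 in untreated mice and by 0.63 ± 0.12 in treated mice (edgeR adjusted p of 0.00193 and 0.0218), and the difference between treated and untreated mice was -0.31 (edgeR adjusted p = 0.886). Ifng itself had too few counts to be tested and was at 0 in all WT libraries and at 0 to 0.679 CPM in HD libraries.

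Among the genes that trim, carry and load the peptides, 3 of 9 rose in untreated mice (B2m, Tap1 and Erap1). Of all tested genes, 4.58% were called higher in untreated mice. In treated mice 0 of 9 were called by edgeR, 5 had an unadjusted P under 0.05 and DESeq2 called 3. Of all tested genes, edgeR called 0.904% higher in treated mice, and 21.4% had an unadjusted P under 0.05. Tap1, which shares its promoter window with Psmb9, was at 2.61, 1.95 and 3.32 CPM in WT, 7.44, 18.0 and 96.6 CPM in untreated and 10.3, 19.9 and 56.1 CPM in treated mice. Its log2 difference of 3.95 ± 0.98 in untreated mice (edgeR adjusted p = 0.0351) stood beside 3.72 for Psmb9. Tap2, the partner of Tap1, had a difference of 2.08 (edgeR adjusted p = 0.0581). B2m, the light chain of MHC class I, was at 45.4 to 56.8 CPM in WT, 148, 246 and 915 CPM in untreated and 190, 280 and 546 CPM in treated mice (3.09 ± 0.65 in untreated mice, edgeR adjusted p = 0.0204). Erap1, which trims peptides, was at 7.56 to 8.44 CPM in WT, 12.2 to 24.1 CPM in untreated and 12.3 to 22.1 CPM in treated mice (1.06 ± 0.29 in untreated mice, edgeR adjusted p = 0.0499). The chaperones Calr, Canx and Pdia3, which also serve other proteins of the endoplasmic reticulum, had log2 differences from -0.24 to 0.04 in both comparisons with WT. They are named after their values were seen.

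**Figure D4:**
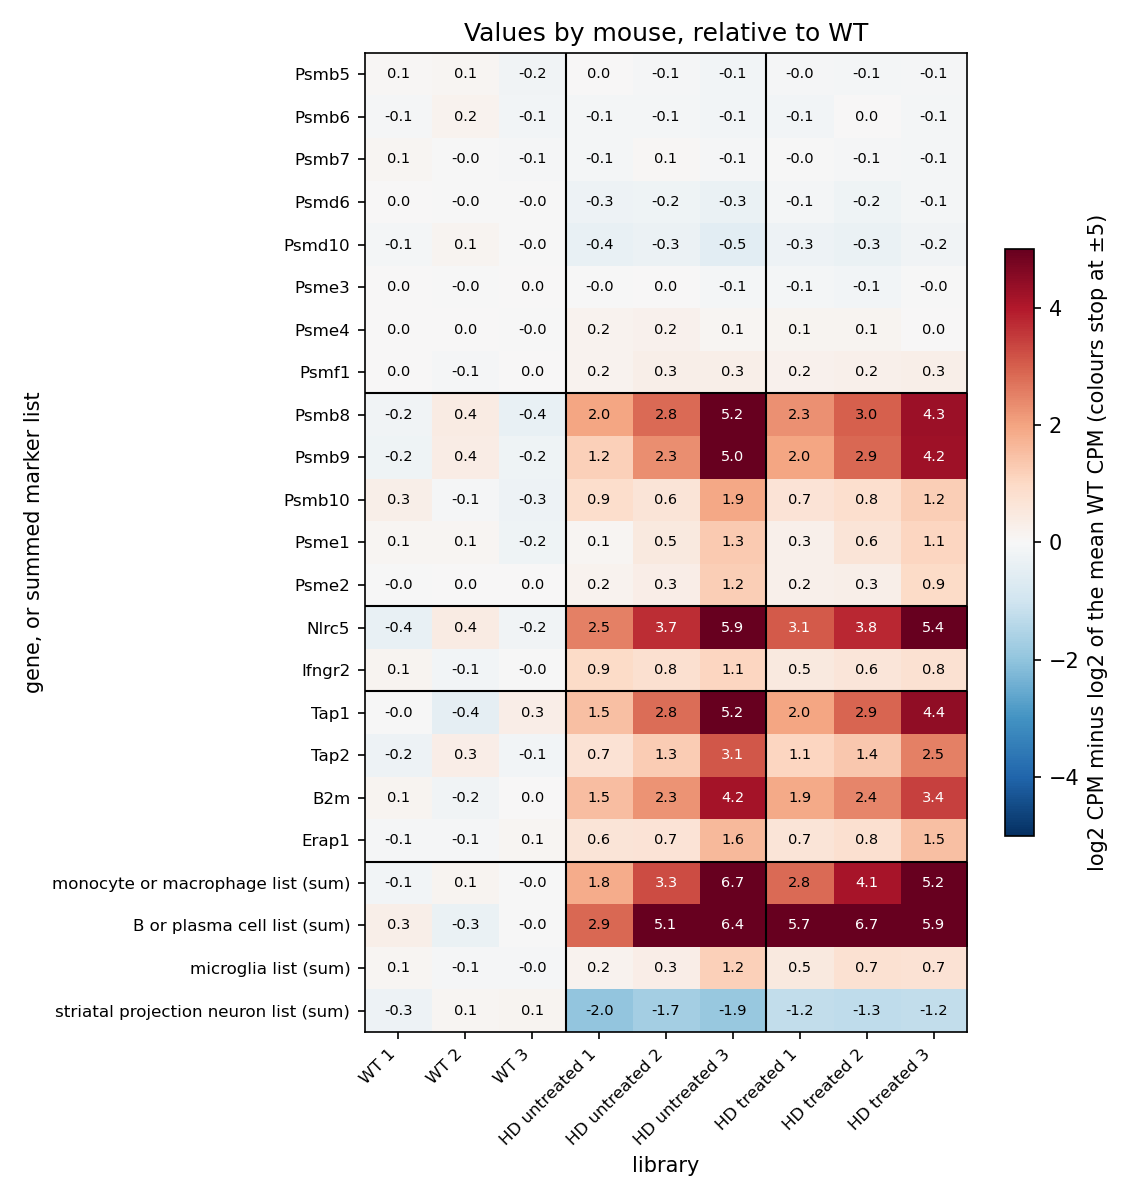
Log2 CPM of proteasome genes, interferon regulators, peptide loading genes and summed marker lists in each of the 9 libraries, relative to the mean WT CPM. Within each HD group the values of Psmb8 are lowest in replicate 1 and highest in replicate 3, as are those of Nlrc5, Tap1, B2m and the monocyte or macrophage list, while Psmb5, Psmb6 and Psmb7 stay near 0.

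Over all tested genes, edgeR called 10.7% in untreated and 3.69% in treated mice against WT. At an unadjusted P under 0.05 these shares were 28.6% and 21.4%. Calls among other genes of the ubiquitin-proteasome pathway are given beside these shares. Of 10 assembly and accessory genes, 0 were called by edgeR in either comparison with WT. In untreated mice 3 had an unadjusted P under 0.05 and DESeq2 called 1, and in treated mice 1 and 0. The 3 in untreated mice were the small subunit gene Sem1 (-0.36 ± 0.12, edgeR adjusted p = 0.0861), the ubiquitin receptor gene Adrm1 (-0.25 ± 0.10, edgeR adjusted p = 0.131) and the deubiquitinase gene Uchl5 (0.34 ± 0.14, edgeR adjusted p = 0.148). Pomp, the chaperone of core particle assembly, was at 60.0 to 64.5 CPM in WT and 60.4 to 72.7 CPM in HD mice, and is named after its values were seen. Of the 4 genes that activate proteasome transcription, 0 were called by edgeR or DESeq2 and 0 had an unadjusted P under 0.05 in any comparison. Nfe2l1, the factor that binds the antioxidant response elements of proteasome genes, was at 338 to 376 CPM in WT and 321 to 342 CPM in HD mice. Nfe2l2, a related factor, had log2 differences of 0.15 and 0.18 from WT, and Ddi2, the protease that activates Nfe2l1, of 0.04 and -0.05.

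Of 12 ubiquitin genes and shuttles, 1 was called in each comparison with WT, against 10.7% of all tested genes in untreated and 3.69% in treated mice. Ubqln4, which brings substrates to the proteasome, was at 145 to 168 CPM in WT, 125 to 136 CPM in untreated and 120 to 128 CPM in treated mice. It fell by 0.26 ± 0.07 in untreated (edgeR adjusted p = 0.0443) and by 0.33 ± 0.07 in treated mice (edgeR adjusted p = 0.0375) on the log2 scale. Ubqln2 was at 159 to 185 CPM in untreated mice against 191 to 222 CPM in WT (-0.26 ± 0.09, edgeR adjusted p = 0.0912), and the ubiquitin gene Ubb had a value of -0.21 (edgeR adjusted p = 0.175).

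Immune cells express the inducible subunits strongly, and some markers of such cells were higher in HD mice. Of 6 monocyte or macrophage markers, 4 rose in untreated mice (Lyz2, Ly6c2, Itgax and Cd74) and 2 in treated mice. Their summed level was 7.97 to 9.47 CPM in WT, 31.1, 82.6 and 884 CPM in untreated and 62.3, 149.9 and 320 CPM in treated mice, in the order of the Psmb8 values. Of 8 T cell markers, edgeR called 4 higher (Cd3e, Cd3g, Cd8a and Trac) and 1 lower (Cd4) in untreated mice. In treated mice 1 of 8 was called, Cd4, lower. The 4 called higher had 0 to 8 counts per WT library and passed the count filter only through HD libraries. Their calls are therefore not read as a result. Cd3d and Cd3g were at 0 in all WT libraries and at up to 4.25 and 11.3 CPM in untreated mice. The T cell sum, 64.4 to 81.4 CPM in WT, 22.7 to 84.9 CPM in untreated and 39.0 to 49.8 CPM in treated mice, was mostly Cd4, which was at 62.6 to 79.8 CPM in WT.

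Of 4 tested B or plasma cell markers, 2 rose in untreated and 3 in treated mice. Their sum was 0.918 to 1.44 CPM in WT, 8.42, 40.6 and 100.1 CPM in untreated and 59.1, 121 and 71.7 CPM in treated mice. Ms4a1 was at 0 in all WT libraries. Of 7 microglia markers, 0 were called by edgeR in either comparison, with 5 and 6 at an unadjusted P under 0.05 and 4 called by DESeq2 in each. Their sum was 288 to 319 CPM in WT, 337, 373 and 685 CPM in untreated and 424, 500.5 and 497 CPM in treated mice. In treated mice neither this sum nor that of the B or plasma cell list followed the order of Psmb8. The part of immune cells in the levels of Psmb8, Psmb9, Psmb10, Psme1 and Psme2 was not tested. All 9 markers of striatal projection neurons fell in untreated and 8 of 9 in treated mice, from a sum of 5706 to 7520 CPM in WT to 1769 to 2121 CPM and 2891 to 2926 CPM, and the part of this difference in the constitutive members was not tested either. In untreated mice edgeR also called 1 of 5 choroid plexus markers lower (Clic6), and DESeq2 called 3. All 5 had an unadjusted P under 0.05 and were at least 2-fold lower, with a median log2 difference of -3.56. Their sum was 64.7, 3731 and 1198 CPM in WT and 33.7 to 183 CPM in untreated mice. Of 4 endothelial markers in untreated mice, edgeR called 1 higher (Cldn5) and DESeq2 called 3. For astrocytes edgeR called 0 of 5, with 3 at an unadjusted P under 0.05 and 1 called by DESeq2, and for red blood cells 0 of 5 by either tool, with 0 at an unadjusted P under 0.05. In treated mice the red blood cell list also had 0 calls by either tool, but all 5 genes were lower in every library at an unadjusted P under 0.05 and at least 2-fold, with a median log2 difference of -3.04. Its summed level was 107 to 190 CPM in WT and 2.77 to 51.5 CPM in treated mice.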

How the data were processed

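The deposited mouse file holds raw counts per gene from 3′ mRNA libraries primed with oligo-dT. The authors' methods name STAR as the aligner, while the submitters' processing notes list Trimmomatic 0.39, FastQC 0.11.9, HISAT2 2.2.1 and featureCounts 2.0.1. The mouse build and annotation, and whether molecular identifiers were collapsed, are not given in the sources used here, so the only coordinates printed are those of the RefSeq promoter windows, and near-identical genes are uncertain. Gene IDs were matched to symbols for 94.1% of genes (99.8% of counts). Of all genes, 378 hold the value 1 in every library, and no proteasome gene does. The pig data and protein sequences were not used here.

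Counts of the 9 mouse libraries were filtered (filterByExpr), scaled by TMM and fitted together with edgeR 4.0.16 in R 4.3.3 (quasi-likelihood test, 6 residual degrees of freedom). Calls had a Benjamini-Hochberg adjusted p under 0.05 over 19463 genes. The SE was taken as log2 fold change over the root of the F statistic. Intervals are 95% on the 6 residual degrees of freedom alone, so they are wider than the test implies. For Psme2 in untreated mice against WT, the unadjusted edgeR P was 0.0408, while the interval ran from -0.022 to 1.32. A second rule was an unadjusted P under 0.05 with at least 2-fold change. Log2 CPM had a prior count of 2. Ratios of counts, with 2 added to each, were compared by a two-sided exact permutation test. Alternatives were DESeq2 1.42.0, other scalings and filters, the compared groups alone, a replicate block, a Y-linked covariate and leaving out libraries. No pair of libraries of a group was a duplicate (chi-square per degree of freedom of 10.5 to 51.9). Motifs were searched in Python 3.11.15 on both strands.

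Named are the 5 inducible genes, Psmb5, Psmb6, Psmb7, Psme3, Psme4, Psmf1, called members, the member with the smallest P in each role group and comparison, untested members, 3 genes with the smallest P per pathway list, Tap1 and Tap2. The members and lists were chosen with earlier results of these data known, and some items of the lists are not reported here. Mice are labelled as separate samples, and p-values measure only the spread between them.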

Additional observations from a re-analysis of the deposited data

How the results depend on the processing

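With 3 mice per group, the 95% interval of the log2 difference between treated and untreated mice ran from -2.36 to 1.29 for Psmb8 and from -0.20 to 0.20 for Psmb5. The number of members called in untreated mice against WT was 5, and it was 7 with DESeq2, 1 without the low-count filter, 1 with the compared groups alone, 0 with the Y-linked covariate, 2 without both HD replicates numbered 3 (chosen after the data were seen) and 0 to 3 when a library was left out. For treated mice against WT it was 0, but 4 with DESeq2, 3 with the compared groups alone, 2 without both HD replicates numbered 3, 3 at an unadjusted P under 0.05 and 2-fold, 2 at an unadjusted P under 0.01 and 2-fold, and 0 to 3 when a library was left out (1 without untreated replicate 1, 3 without untreated replicate 3). Over all genes, edgeR called 2080 and DESeq2 3473 in untreated mice, and 718 and 1946 in treated mice. The edgeR count in untreated mice was 726 with the compared groups alone, 1096 without the low-count filter and 457 with the Y-linked covariate. Without TMM factors the constitutive median was -0.0195 in untreated and -0.0161 in treated mice, and it was -0.107 to -0.0584 in treated mice when a library was left out.

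Some values near 0 changed sign. Psmb7 in untreated mice was 0.0253 without TMM factors and -0.0799 to 0.0197 when a library was left out, and Psmb6 in treated mice was -0.125 to 0.0495. With the Y-linked covariate, the treated values against WT were -0.0694 for Psme1, -0.0327 for Psme2 and 0.0054 for Psmb5. Between treated and untreated mice, Psmb5 was 0.0105 without TMM factors, 0.00543 with DESeq2's size factors, 0.00551 with DESeq2, 0.00699 without the low-count filter, 0.0170 with at least 10 counts in every library, 0.00595 with the compared groups alone and 0.0281 with the covariate. Without both HD replicates numbered 3 the values were 0.20 for Psmb8, 0.62 for Psmb9, 0.14 for Psme1 and 0.0157 for Psme2. When a library was left out, they ran from -1.27 to 0.95 for Psmb8, -1.22 to 1.45 for Psmb9, -0.55 to 0.17 for Psmb10, -0.27 to 0.38 for Psme1, -0.37 to 0.28 for Psme2, -0.0383 to 0.0488 for Psmb5 and -0.0660 to 0.0193 for Psmb7. The cause of these changes was not tested. Psma8 gave no value with at least 10 counts in every library, nor in treated mice with the compared groups alone.

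The correlations of deviations of same-numbered treated and untreated mice were 0.191, -0.003 and 0.236. Those of same-numbered mice in the comparisons with WT lay between -0.081 and 0.085. Differently numbered mice were not compared, so whether the replicate numbers pair the mice was not tested. With the replicate number as a block, 4 members were called in untreated mice, 2 in treated mice (Psmb8 and Psmb9) and 0 between them, and the differences between treated and untreated mice were 0.0021 for Psmb5 and 0.00156 for Psmb9.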
